A study of Mus musculus with 6 samples.

Results

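The genes of N-glycan assembly and transfer were examined in RNA-seq libraries of NIH3T3 cells, a line of mouse embryo fibroblasts. The set held 36 genes of the 35275 in the deposited count table, chosen by gene name for their role in the pathway, and all 36 were found. The study compared 3 libraries of wild-type NIH3T3 cells with 3 libraries of a stable NIH3T3 line overexpressing NgBR, the Nogo-B receptor. That line was made with a pIRES plasmid carrying HA-tagged NgBR and selected with G418, an agent the labels do not name for the wild-type cells. Both were grown in DMEM with penicillin, streptomycin and 10% calf serum, and total RNA (1.5 micrograms per library) entered a SMARTer mRNA-seq preparation. The labels give neither the number of clones in the overexpressing line nor the origin of the 3 libraries of a group. P-values therefore rest on how far these libraries spread, and that spread may be technical. The count table held no other libraries, and no knockdown lines were analysed here.

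N-glycosylation begins with a lipid, dolichol phosphate, on which ALG enzymes build a branched oligosaccharide, first on the cytosolic face of the endoplasmic reticulum and then in its lumen. Oligosaccharyltransferase moves the finished glycan to asparagine residues of new proteins, after which glucosidases and a mannosidase trim it while a glucosyltransferase tests the fold of the protein. NgBR, encoded by Nus1, is a subunit of cis-prenyltransferase, which makes the dolichol precursor, so that the pathway lies downstream of the gene named in the label. In fibroblasts the pathway serves the secretion of matrix glycoproteins and the display of receptors.

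Wild-type libraries held 29515072 to 35511769 counts and libraries labelled NgBR overexpression 7369961 to 10358381, so that mean depth was 3.50-fold higher in wild type and cannot be told apart from the group. The mouse gene Nus1 was at 212, 187 and 233 CPM (counts divided by TMM-scaled library size and set to a common scale) in wild-type libraries 1 to 3 and at 184, 185 and 165 CPM in the labelled libraries (log2 fold change -0.24, adjusted p = 0.786 by edgeR). Nus1 was thus lower in every labelled library, but the highest labelled value (185 CPM) lay just below the lowest wild-type value (187 CPM). The 95% interval of its log2 fold change, -0.72 to 0.24, includes no change. Of all genes tested, 9.37% were likewise lower in every labelled library. Whether plasmid-derived reads map to Nus1 is not known, so that its counts do not test the label. Directions below are given for the labelled libraries against wild type. Of the fibroblast markers, all 8 were tested and their summed level was 12371 to 16448 CPM in wild-type libraries and 15484 to 19498 CPM in the others. Epithelial markers summed to at most 0.982 CPM, endothelial markers to at most 2.10 CPM and leukocyte markers to at most 3.31 CPM in any library, with Epcam, Krt18 and Cldn4 at 0 counts throughout.

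None of the 36 genes passed the test at a Benjamini-Hochberg adjusted p of 0.05 in edgeR's quasi-likelihood test, against 3.39% of the 12651 genes tested (2.04% higher and 1.35% lower). All 36 passed the filter on low counts, with at least 18 counts in every library. A single member, Uggt1, was under an unadjusted p of 0.05, a level that 11.4% of all genes tested reached. DESeq2 and limma-voom also called 0 members. In simulated data the edgeR fit called 10.2% of the genes changed 2-fold, so that a missing call does not show a missing change. Log2 fold changes ran from -0.68 for Uggt1 to 0.54 for Tusc3, with a median of -0.12 beside -0.01 over all genes tested. Of the members 15 were positive and 21 negative, while 48.7% of all genes tested were positive. In bulk RNA, fewer cells with a transcript and less of it per cell cannot be told apart.

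The standard errors of the log2 fold changes ran from 0.20 to 0.50. For 27 of the 36 genes the 95% interval lay within a 2-fold change in either direction, as it did for 54.5% of all genes tested. The order of the genes was much alike in the groups, with a Spearman correlation of 0.977 between the mean CPM of wild-type and labelled libraries across the 36 genes, which share libraries and gene lengths and are not independent.

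**Figure D1:**
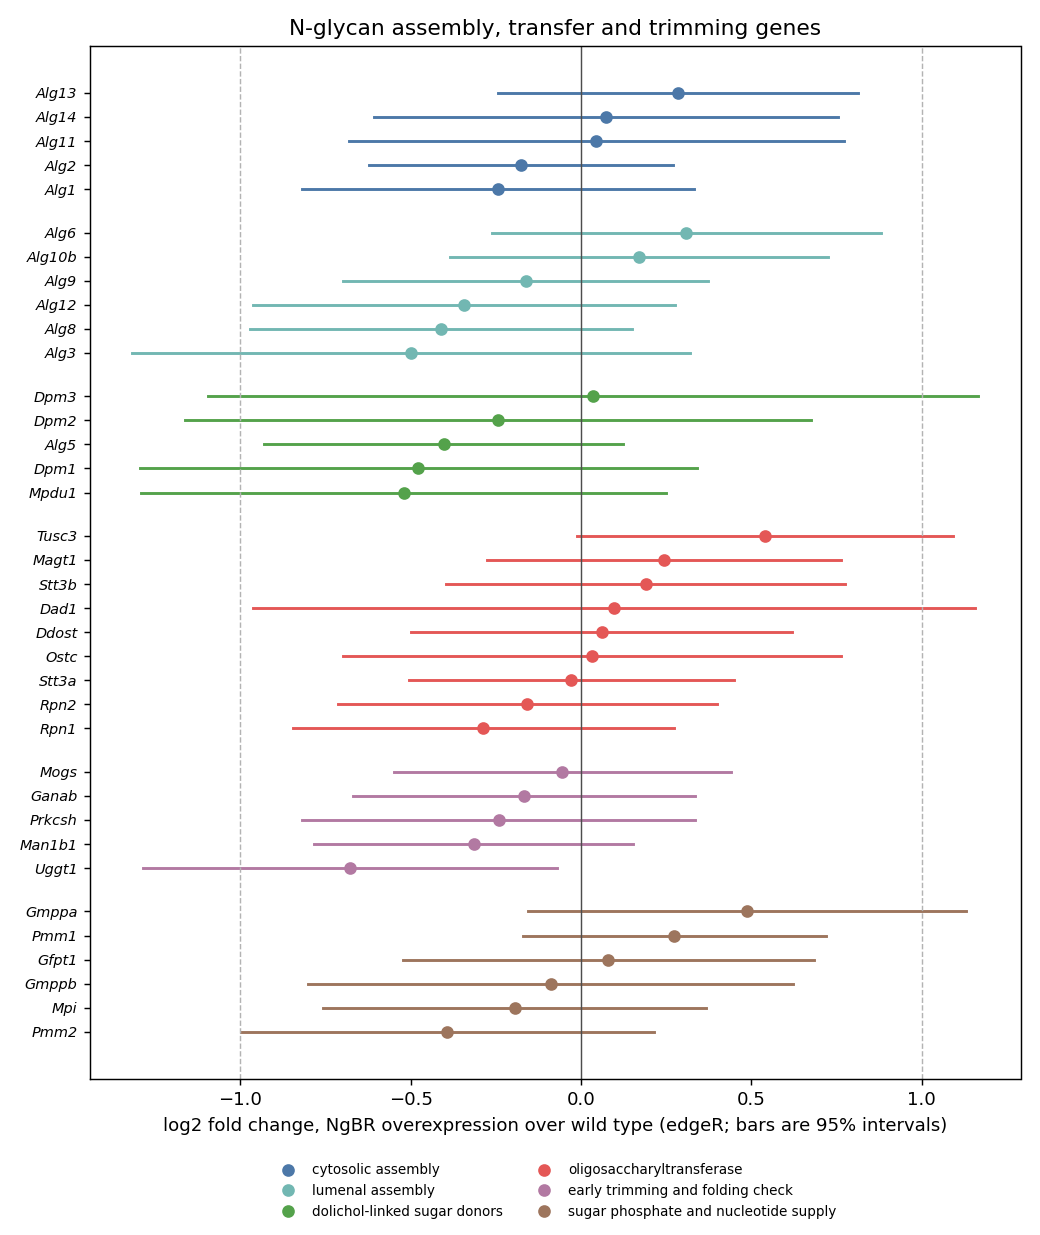
Log2 fold changes of the 36 genes (points, x axis, libraries labelled NgBR overexpression over wild type) with 95% intervals (bars) from edgeR, grouped by step of the pathway; dashed lines mark 2-fold changes. Uggt1 has the lowest value (-0.68) and Tusc3 the highest (0.54), and the interval of Uggt1 alone excludes 0.

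Assembly on the cytosolic face gave 3 positive and 2 negative log2 fold changes among 5 genes, with a median of 0.05. Alg13 and Alg14 encode the catalytic and the membrane subunit of the enzyme that adds the second N-acetylglucosamine. Alg13 was at 11.2, 13.6 and 13.0 CPM in libraries 1 to 3 of the wild type and at 12.8, 17.0 and 16.2 CPM in the labelled libraries, and Alg14 at 13.5, 7.44 and 14.0 CPM against 14.0, 10.1 and 12.7 CPM. The ranges overlapped for both, with log2 fold changes of 0.29 (SE 0.23) and 0.07 (SE 0.30) and edgeR adjusted p of 0.766 and 0.974. The ratio of their counts, Alg13 to Alg14, was 1.20 ± 0.552 in wild type and 1.29 ± 0.388 in the labelled libraries (SD, n = 3 each; exact two-sided permutation p = 0.8).

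The mannosyltransferases of the same face, Alg1, Alg2 and Alg11, differed in the spread between libraries. Alg1, which adds the first mannose, was at 12.0, 17.7 and 12.0 CPM against 10.8, 11.3 and 13.1 CPM. Alg2, which adds the next ones, was steadier at 42.8, 50.3 and 44.0 CPM against 40.1, 43.3 and 37.9 CPM, with overlapping ranges and a log2 fold change of -0.18 (95% interval -0.62 to 0.27, adjusted p = 0.855 by edgeR). Alg11, which completes the cytosolic chain, was at 63.8, 90.9 and 51.9 CPM against 71.7, 96.8 and 44.8 CPM. In both groups library 2 was highest and library 3 lowest for Alg11, and the group means of 68.9 ± 19.97 and 71.1 ± 26.0 CPM differed by far less than the libraries within a group (SD, n = 3).

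In the lumen, ALG3, ALG9 and ALG12 add mannoses and ALG6, ALG8 and ALG10 add the glucoses that oligosaccharyltransferase recognizes. Of these 6 genes, 4 were negative and 2 positive, with a median log2 fold change of -0.25. Alg3 was at 17.5, 16.9 and 15.2 CPM in wild-type libraries and at 14.5, 5.44 and 15.3 CPM in the labelled ones, where library 2 alone was low. Its log2 fold change of -0.50 (± 0.36 SE, adjusted p = 0.722 by edgeR) was -0.14 without both libraries numbered 2. Alg12 was at 13.1, 10.8 and 12.7 CPM against 8.98, 7.22 and 12.6 CPM, and Alg9 at 21.2, 23.2 and 22.1 CPM against 23.9, 15.0 and 20.7 CPM, both with overlapping ranges.

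The glucosyltransferases went in different directions without passing the test. Alg6, for the first glucose, was at 12.5, 8.73 and 12.8 CPM against 13.1, 13.1 and 16.1 CPM, higher in every labelled library (log2 fold change 0.31 ± 0.25 SE, adjusted p = 0.765 by edgeR). Alg8, for the next glucose, was at 12.1, 12.9 and 9.21 CPM against 8.70, 7.82 and 9.17 CPM, lower in every labelled library (log2 fold change -0.41 ± 0.25 SE, adjusted p = 0.635 by edgeR). The gaps between their ranges were small, and the ranges of Alg8 overlapped with RLE, upper-quartile or no composition factors and those of Alg6 with upper-quartile or no composition factors. Alg10b, for the terminal glucose, was the most abundant of the ALG genes per length, at 136, 172 and 140 CPM against 189, 191 and 125 CPM, with labelled library 3 below all wild-type libraries.

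Alg12 was the one gene of the set with an endoplasmic reticulum stress response element (ERSE) in the 250 bases before its RefSeq start site. This element, CCAAT and CCACG with 9 bases of any kind between them, is the binding site of ATF6 with NF-Y upstream of many chaperone genes, and was searched on both strands in the 31 members with a RefSeq promoter (build GRCm38.p6). It was found in 3.23% of these members and in 0.13% of the 27025 genes with such a window, a share that rests on 1 gene. The match lies 220 to 202 bases before the start, and the window is shown to give its place among the CCAAT and GC-rich sequence (chr15:88819319-88819568, minus strand, ERSE in capitals).
Alg12: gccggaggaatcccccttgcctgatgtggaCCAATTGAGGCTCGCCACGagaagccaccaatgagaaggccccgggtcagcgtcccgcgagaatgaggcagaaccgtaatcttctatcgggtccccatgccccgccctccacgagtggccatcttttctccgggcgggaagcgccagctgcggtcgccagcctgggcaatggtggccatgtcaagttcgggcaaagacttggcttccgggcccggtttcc

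Other letters were searched in the same way. The core TGACGTG of the unfolded protein response element was present in Dpm2 and Mogs, 6.45% of the members against 1.85% of all genes with a window. The letters CCAAT were present in 45.2% of the members against 37.5% of all genes, where a match to the ERSE also counts. GC boxes (GGGCGG) were present in 61.3% against 35.4%, and TATAAA in 6.45% against 14.3%. The median GC content was 58% for the members' windows (the highest per gene) and 52.4% for all windows. All genes with a window were counted, whether expressed or not, while all members passed the filter on low counts. The part of base composition or expression in these shares was not tested. Matches describe these windows and show no binding.

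Lumenal enzymes draw their sugars from dolichol-linked donors, dolichol phosphate mannose, made by DPM1 with its anchoring subunits DPM2 and DPM3, and dolichol phosphate glucose, made by ALG5, with MPDU1 needed for the use of both. Of these 5 genes 4 were negative, with a median log2 fold change of -0.40, but 1 of 5 had a 95% interval within a 2-fold change. Alg5 was at 28.9, 40.1 and 29.9 CPM in wild type and 26.4, 20.8 and 27.6 CPM in the labelled libraries. Its ranges were 1.28 CPM apart, and overlapped with no composition factors (log2 fold change -0.40 ± 0.23 SE, adjusted p = 0.612 by edgeR). Mpdu1 was at 43.6, 32.5 and 44.0 CPM against 25.1, 16.0 and 42.6 CPM, so that labelled libraries 1 and 2 lay below all wild-type libraries and labelled library 3 among them. Its log2 fold change was -0.52 (± 0.34 SE, adjusted p = 0.674 by edgeR). It was -0.97 without labelled library 3 (adjusted p = 0.188 by edgeR) and -0.24 without labelled library 2 (adjusted p = 0.799 by edgeR).

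Dpm1 had the lowest level per length of the set, 0.570 ± 0.200 CPM per kb of exons in wild type, and was at 5.81, 4.16 and 2.83 CPM in wild type and 2.53, 3.76 and 2.87 CPM in the labelled libraries. Its annotated exons overlap those of another gene on the same strand over 895 bases, where reads cannot be assigned to 1 gene. Dpm2 was at 18.3, 9.001 and 19.8 CPM against 8.70, 10.1 and 20.9 CPM. Dpm3, with 919 exonic bases the shortest gene of the set, was at 18.2, 7.11 and 16.5 CPM against 11.8, 6.33 and 24.7 CPM. The labelled libraries thus held both the lowest and the highest value of Dpm3, and its log2 fold change of 0.04 had a 95% interval of -1.09 to 1.17.

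Oligosaccharyltransferase exists as 2 complexes that share RPN1, RPN2, DDOST, DAD1 and OST4 and differ in their catalytic subunit. STT3A, with OSTC, acts on proteins as they enter the lumen, and STT3B, with the oxidoreductases TUSC3 or MAGT1, on sites that were skipped. Of the 9 subunit genes in the set 6 were positive and 3 negative, 0 were called, and their median log2 fold change was 0.06. Their summed level was 1653, 1353 and 1582 CPM in libraries 1 to 3 of the wild type and 1652, 1413 and 1526 CPM in the labelled libraries, with group means of 1529 ± 156 and 1530 ± 120 CPM (SD, n = 3).

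The catalytic subunits differed in spread, Stt3a varying least of all 9 genes in wild type. Stt3a was at 229, 239 and 238 CPM in wild-type libraries and 247, 208 and 236 CPM in the labelled ones. The ranges overlapped, and its log2 fold change was -0.03 (adjusted p = 0.989 by edgeR, 95% interval -0.51 to 0.45). Stt3b was at 249, 284 and 233 CPM against 333, 331 and 209 CPM, with labelled libraries 1 and 2 above and labelled library 3 below all wild-type libraries (log2 fold change 0.19 ± 0.26 SE, adjusted p = 0.890 by edgeR). The ratio of Stt3a to Stt3b counts, which no scaling of libraries changes, was 0.919, 0.839 and 1.02 in wild type and 0.740, 0.628 and 1.13 in the labelled libraries. The ratios overlapped, with an exact two-sided permutation p of 0.5, where 3 libraries against 3 cannot give less than 0.1. Of the 5 ratios tested between paired genes, 0 passed after Benjamini-Hochberg adjustment, which the smallest attainable p does not allow.

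Tusc3 had the highest log2 fold change of the set. Wild-type libraries 1 to 3 gave 66.3, 45.9 and 64.8 CPM, against 68.3, 87.0 and 102 CPM in the labelled ones. Every labelled library lay above every wild-type library, labelled library 1 by 2.02 CPM, and the ranges overlapped with no composition factors. The means were 59.0 ± 11.4 and 85.8 ± 17.0 CPM (SD, n = 3). The log2 fold change of Tusc3 was 0.54 with a 95% interval of -0.01 to 1.09, and edgeR gave an unadjusted p of 0.0537 and an adjusted p of 0.447. Magt1, its paralogue, was at 132, 95.7 and 121 CPM against 144, 156 and 114 CPM (log2 fold change 0.25 ± 0.23 SE, adjusted p = 0.809 by edgeR). The ratio of Magt1 to Tusc3 was 1.99, 2.08 and 1.87 in wild type and 2.11, 1.79 and 1.11 in the labelled libraries, where library 3 alone stood apart (exact two-sided permutation p = 0.5).

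The shared subunits, among them the ribophorins RPN1 and RPN2, overlapped between the groups in every case. Rpn1 was at 370, 277 and 340 CPM against 323, 228 and 258 CPM, and Rpn2 at 324, 237 and 303 CPM against 295, 211 and 268 CPM, with library 2 lowest in both groups for both genes. Their log2 fold changes were -0.29 (± 0.25 SE, adjusted p = 0.784 by edgeR) and -0.16 (± 0.25 SE, adjusted p = 0.911 by edgeR). Ddost was at 149, 116 and 158 CPM against 141, 117 and 184 CPM. Dad1 ranged from 12.2 CPM in wild-type library 2 to 45.7 CPM in wild-type library 1, a 3.75-fold difference within 1 group, and from 25.4 to 52.0 CPM in the labelled libraries. Ostc, of the STT3A complex, was at 88.0, 47.0 and 81.8 CPM against 69.0, 50.9 and 102 CPM, again with library 2 lowest in both groups.

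Levels of different genes were compared as CPM per kb of annotated exons. In wild-type libraries Rpn1, Ddost, Rpn2 and Stt3b stood at 72.9 ± 10.5, 66.5 ± 10.5, 65.0 ± 10.2 and 60.5 ± 6.26 CPM per kb, and neighbours in this order did not differ beyond their SD (n = 3). Ostc, Stt3a, Magt1 and Tusc3 followed at 26.3 ± 8.02, 26.2 ± 0.614, 24.9 ± 3.997 and 17.2 ± 3.31 CPM per kb, and Dad1 was lowest at 8.60 ± 4.76 CPM per kb. In the labelled libraries Ddost and Stt3b led with 69.4 ± 16.0 and 69.0 ± 16.8 CPM per kb, ahead of Rpn1 and Rpn2 at 59.8 ± 10.8 and 58.3 ± 9.71 CPM per kb, differences again within the SD. The exonic length is the union of all annotated exons, 8948 bases for Stt3a, so that a gene with long rarely used exons is set too low on this scale.

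**Figure D2:**
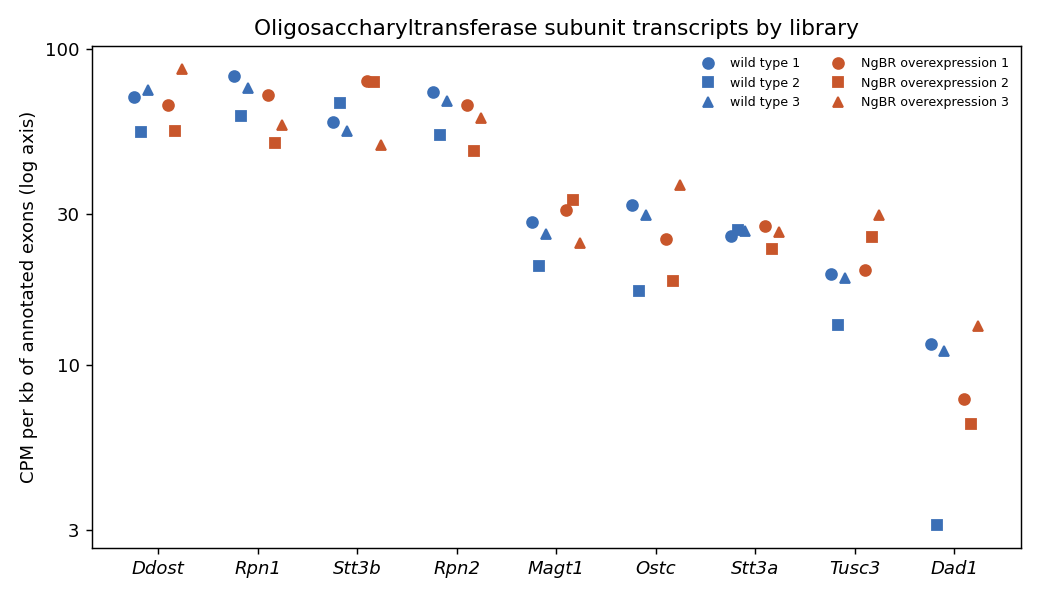
Transcript level of the 9 oligosaccharyltransferase subunit genes (x axis, ordered by mean level) in CPM per kb of annotated exons (y axis, log scale); each symbol is 1 library, blue for wild type and orange for NgBR overexpression. Ddost, Rpn1, Rpn2 and Stt3b form the upper group in both lines, and Dad1 is lowest, with wild-type library 2 far below the others.

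Early trimming and the folding check was the step in which all 5 genes were negative, from -0.05 to -0.68, and 3 of the 5 did not overlap between the groups, which held for 18.6% of all genes tested. Uggt1 encodes the glucosyltransferase that marks incompletely folded glycoproteins for another round with calnexin and calreticulin, and lies at chr1:36140027-36244720 on the minus strand (GRCm38). It was at 312, 401 and 272 CPM in libraries 1 to 3 of the wild type and at 224, 237 and 154 CPM in the labelled libraries, so that every labelled library lay below every wild-type library. The means were 328 ± 65.8 and 205 ± 44.9 CPM (SD, n = 3), a ratio of 0.625, and the log2 fold change was -0.68 with a 95% interval of -1.28 to -0.07. Its unadjusted p of 0.0323 became an adjusted p of 0.347 by edgeR over all genes tested. Uggt1 is also the longest gene of the set, with 12853 exonic bases, and in both groups it was highest in library 2 and lowest in library 3.

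Ganab and Prkcsh encode the catalytic and the regulatory subunit of glucosidase II. Ganab was at 399, 424 and 391 CPM against 378, 350 and 352 CPM, lower in every labelled library by a narrow margin (404 ± 17.2 and 360 ± 15.6 CPM, SD, n = 3; log2 fold change -0.17 ± 0.22 SE, adjusted p = 0.884 by edgeR). Prkcsh was at 176, 141 and 185 CPM against 147, 103 and 175 CPM and overlapped. Man1b1, the mannosidase that removes a first mannose and whose exons overlap another gene over 234 bases, was at 130, 162 and 129 CPM against 118, 115 and 105 CPM, lower in every labelled library (log2 fold change -0.31 ± 0.21 SE, adjusted p = 0.674 by edgeR). Mogs, glucosidase I, was at 65.7, 79.5 and 74.7 CPM against 77.2, 56.3 and 78.3 CPM and had a log2 fold change of -0.05.

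Over the set 8 genes had groups without overlap in CPM, 3 higher (Alg6, Pmm1 and Tusc3) and 5 lower (Alg5, Alg8, Ganab, Man1b1 and Uggt1) in the labelled libraries. Over all genes tested these shares were 9.21% higher and 9.37% lower. With no composition factors 4 genes remained separate, Pmm1 higher and Ganab, Man1b1 and Uggt1 lower, and these 4 were separate under all 4 scalings tried.

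**Figure D3:**
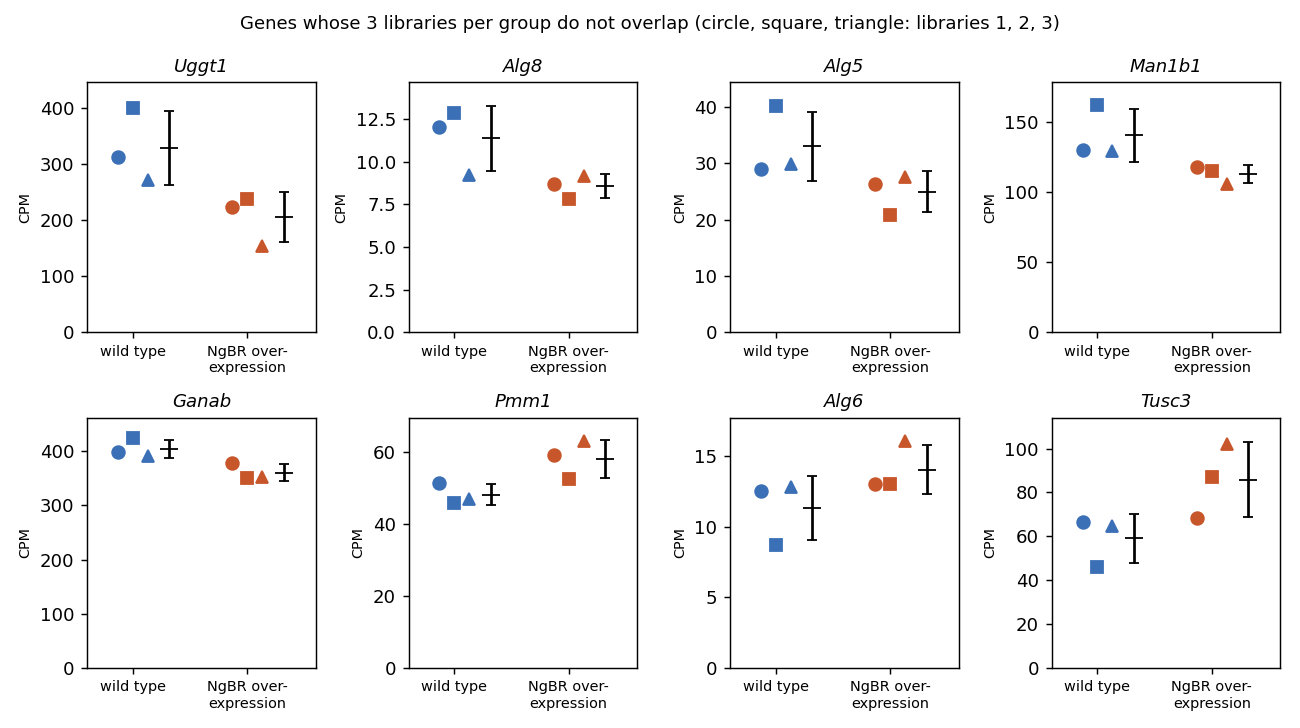
CPM (y axis, from 0) of the 8 genes whose group ranges did not overlap; symbols are single libraries, blue for wild type and orange for NgBR overexpression, and the black bars give mean and SD (n = 3). Uggt1 shows the widest gap in CPM (means 328 against 205 CPM), while the ranges of Alg8 and Alg6 almost touch.

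The sequences before the start sites of Uggt1 and Ganab are shown as those of trimming genes that were lower in every labelled library, with GC boxes in capitals. Both hold GGGCGG, 2 matches in Uggt1 and 1 in Ganab, and neither holds the ERSE or TGACGTG. The stretch of Uggt1 (chr1:36244306-36244552, minus strand) ends 3 bases before the RefSeq start and lies within the annotated span of the gene. That of Ganab (chr19:8897889-8898056, plus strand) reaches the start. Annotated untranslated bases were left out. Man1b1, the other trimming gene lower in every labelled library, holds 2 matches to the GC box, 1 on each strand, and is not shown. GC boxes were also present in Mogs, a trimming gene with overlapping groups, and in Alg6 and Pmm1, which were higher in every labelled library. They were found in 61.3% of the members with a window and in 35.4% of all genes with a window.
Uggt1: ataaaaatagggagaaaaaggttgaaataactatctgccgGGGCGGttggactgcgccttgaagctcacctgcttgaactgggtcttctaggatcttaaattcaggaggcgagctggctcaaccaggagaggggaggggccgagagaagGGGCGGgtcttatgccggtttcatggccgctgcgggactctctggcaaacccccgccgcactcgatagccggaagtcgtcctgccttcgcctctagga
Ganab: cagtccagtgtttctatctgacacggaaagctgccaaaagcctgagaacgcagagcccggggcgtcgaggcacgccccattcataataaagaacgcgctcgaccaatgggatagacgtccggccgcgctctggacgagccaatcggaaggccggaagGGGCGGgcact

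The supply of activated sugars showed paired enzymes with unequal values. Mannose phosphate is made by MPI and turned by PMM1 or PMM2 into the precursor of GDP-mannose, PMM2 being the main isoform of glycosylation. Pmm1 was at 51.3, 45.9 and 47.0 CPM in wild type and 59.1, 52.4 and 62.9 CPM in the labelled libraries, higher in every one of these (log2 fold change 0.27 ± 0.20 SE, adjusted p = 0.717 by edgeR). Pmm2 was at 26.5, 34.0 and 29.95 CPM against 23.3, 15.8 and 29.8 CPM, with labelled library 3 among the wild-type values (log2 fold change -0.39 ± 0.27 SE, adjusted p = 0.697 by edgeR). The ratio of Pmm1 to Pmm2 counts was 1.94, 1.35 and 1.57 in wild type and 2.54, 3.31 and 2.11 in the labelled libraries, without overlap. Its exact two-sided permutation p of 0.1 is the smallest that 3 against 3 can give, and 0.5 after adjustment over the 5 ratios.

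GDP-mannose is made by GMPPB, with GMPPA as its regulatory partner. Gmppa was at 26.1, 14.6 and 27.5 CPM against 26.7, 31.5 and 37.5 CPM, with overlap through 1 library of each group (log2 fold change 0.49 ± 0.29 SE, adjusted p = 0.615 by edgeR). Gmppb was at 14.1, 6.84 and 12.9 CPM against 12.5, 9.498 and 9.94 CPM. The ratio of Gmppa to Gmppb was 2.04 ± 0.171 in wild type and 3.07 ± 0.843 in the labelled libraries (SD, n = 3 each; exact two-sided permutation p = 0.3). Gmppb overlaps another gene on the opposite strand over 937 exonic bases, and without a stated strand setting the reads there cannot be told apart. Mpi was at 18.9, 21.7 and 19.4 CPM against 20.3, 12.7 and 19.5 CPM. Gfpt1, the first enzyme of hexosamine synthesis, was at 244, 191 and 197 CPM against 222, 286 and 161 CPM, with the labelled libraries spanning a wider range than the wild type.

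Among the 6 steps of the set, the totals of the trimming genes alone did not overlap between the groups. They summed to 1083, 1207 and 1051 CPM in wild-type libraries and to 944, 862 and 864 CPM in the labelled ones, of which Uggt1 and Ganab made up the largest part. The genes of dolichol-linked donors summed to 115, 92.8 and 113 CPM against 74.5, 57.0 and 119 CPM, with labelled library 3 above all others. Lumenal assembly (223 ± 18.7 and 232 ± 30.4 CPM), cytosolic assembly (153 ± 23.9 and 150.9 ± 26.9 CPM) and sugar supply (343 ± 34.4 and 364 ± 43.7 CPM) differed by less than 1 SD (n = 3). Outside the set, 3 of the 5 lists of other pathway genes described below also had sums without overlap. Golgi processing summed to 1808 to 2351 CPM in wild type and 1160 to 1618 CPM in the labelled libraries, the start of assembly to 69.0 to 75.9 against 61.9 to 68.8 CPM, and hexosamine supply to 515 to 793 against 891 to 1129 CPM. Separate sums were thus not particular to trimming. Single genes made up a large part of such sums. Gpi1 had means of 465 CPM in wild type and 747 CPM in the labelled libraries in hexosamine supply, where 6 genes were positive and 2 negative. Man2a1 had means of 855 and 403 CPM in Golgi processing, where 3 genes were positive and 11 negative. All 36 genes together took 0.34% to 0.354% of the raw counts of wild-type libraries and 0.308% to 0.333% of those of the labelled libraries. On the CPM scale used for the other sums the groups overlapped, at 3588, 3392 and 3426 CPM in wild type and 3443, 3158 and 3152 CPM in the labelled libraries.

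**Figure D4:**
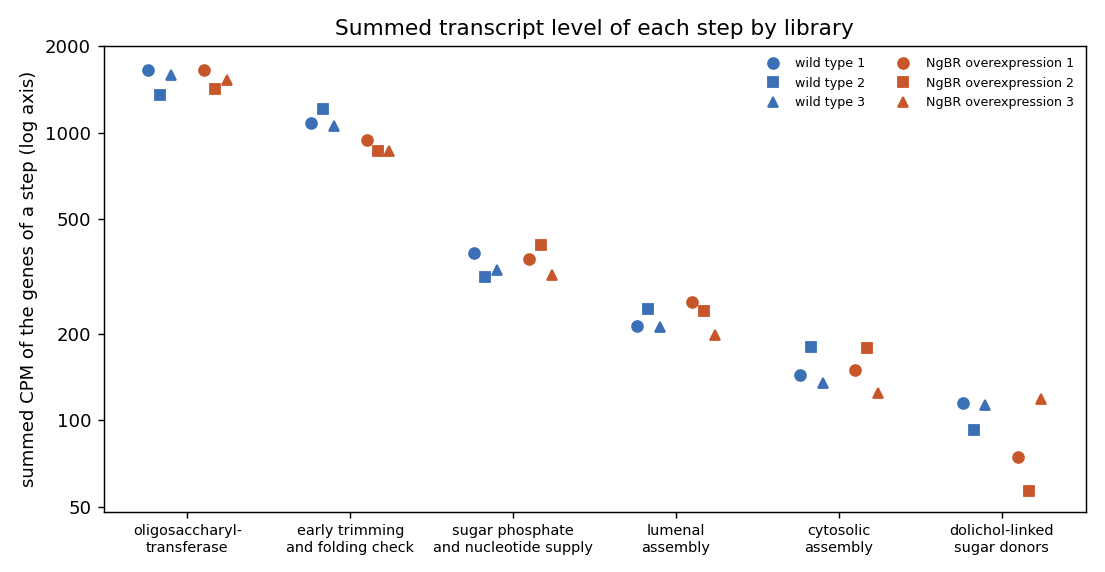
Summed CPM (y axis, log scale) of the genes of each step of the pathway (x axis); each symbol is 1 library, blue for wild type and orange for NgBR overexpression. The early trimming genes separate the groups, at 1051 to 1207 against 862 to 944 CPM, and the sums of the other 5 steps drawn overlap.

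Differences between libraries of a group moved with the length of the gene. The 2 libraries numbered 2 stood apart from the libraries numbered 3, where the log2 CPM of the 36 members, less their mean over the 6 libraries, correlated with exonic length by 0.310 and 0.526 in library 2 and -0.486 and -0.602 in library 3 (Spearman, wild type and labelled). Over all genes tested with a known length these correlations were 0.242 and 0.347 in library 2 and -0.299 and -0.467 in library 3. The trend was thus not particular to the set. In the labelled line all 14 members under 3 kb were higher in library 3 than in library 2, against 12 of the 22 longer members. In wild type these numbers were 10 of 14 and 8 of 22. Dpm3 was 2.33-fold higher in library 3 than in library 2 in wild type and 3.89-fold in the labelled line, Dad1 3.54-fold and 2.04-fold, and Alg11 0.571-fold and 0.463-fold. The median ratio of the highest to the lowest library within a group was 1.36 in wild type and 1.49 in the labelled line. With offsets for length and GC content in each library, Uggt1 had a log2 fold change of -0.71 (adjusted p = 0.0706 by edgeR) and Tusc3 0.56 (adjusted p = 0.276 by edgeR), and 0 members were called. The part of length in the other differences was not tested.

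**Figure D5:**
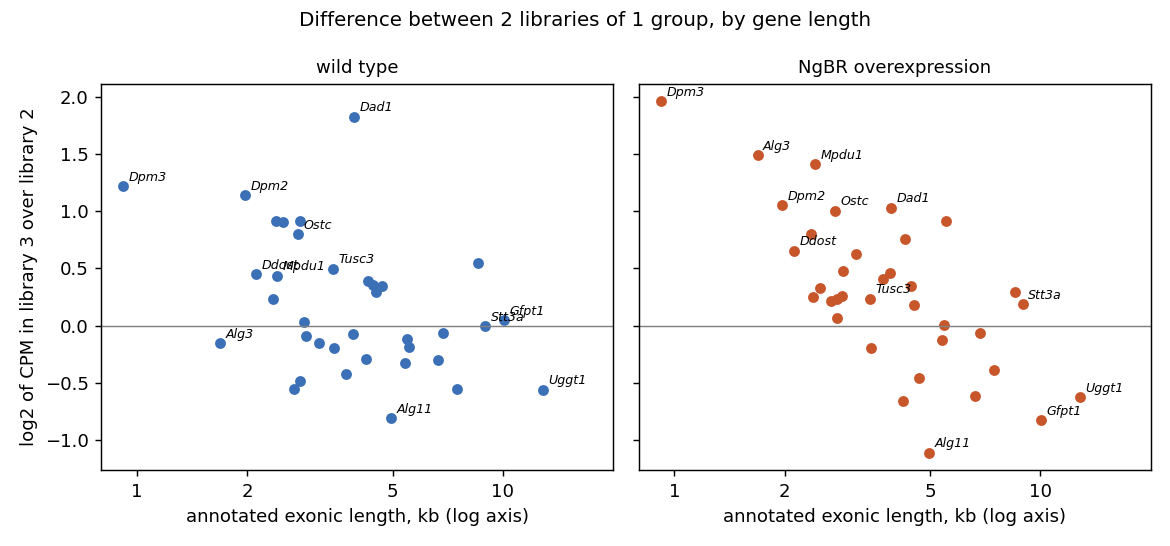
Log2 ratio of CPM in library 3 over library 2 (y axis) against annotated exonic length (x axis, log scale) for the 36 genes, in wild type (left, blue) and NgBR overexpression (right, orange). Short genes such as Dpm3 and Dpm2 lie above 0 and Alg11 and Uggt1 below 0 in both groups.

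Other genes of the pathway came from a list of 42, covering the start of assembly, further oligosaccharyltransferase genes, glycoprotein disposal, Golgi processing and hexosamine supply. They gave 1 call among 41 tested (0 higher and 1 lower), where 3.39% of all genes tested were called and 1.35% called lower. A count of 1 is near that background and is no result about the list. The called gene was Man1c1, a Golgi mannosidase that follows the trimming in the endoplasmic reticulum. It was at 7.62, 11.2 and 9.0 CPM in wild-type libraries and at 2.81, 3.17 and 2.48 CPM in the labelled libraries, where the groups were far apart. The means were 9.27 ± 1.81 and 2.82 ± 0.341 CPM (SD, n = 3), and Man1c1 fell with a log2 fold change of -1.72 (± 0.29 SE, adjusted p = 0.0121 by edgeR). The adjusted p by edgeR rose above 0.05 without labelled library 1 (0.0637, log2 fold change -1.72), without labelled library 3 (0.0532, log2 fold change -1.63) and after thinning every library to the depth of the shallowest (0.113, log2 fold change -1.60). The fold change thus stayed near its value over all libraries while the call was lost.

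The other 4 Golgi mannosidases of the list, named after their values were seen, were not called, and 2 of them, Man2a1 and Man1a, were lower in every labelled library. Man2a1, Golgi mannosidase II, was at 754, 1130 and 683 CPM against 434, 473 and 304 CPM (log2 fold change -1.08 ± 0.31 SE, adjusted p = 0.13 by edgeR). Man1a was at 49.8, 85.7 and 57.6 CPM against 30.5, 43.7 and 29.5 CPM (log2 fold change -0.90 ± 0.28 SE, adjusted p = 0.17 by edgeR). Man1a2 was at 168, 192 and 158 CPM against 152, 209 and 111 CPM, with labelled library 2 above all wild-type libraries (log2 fold change -0.13 ± 0.27 SE, adjusted p = 0.937 by edgeR). Man2a2 was at 186, 228 and 155 CPM against 168, 190 and 109 CPM, with overlapping ranges (log2 fold change -0.28 ± 0.27 SE, adjusted p = 0.816 by edgeR). Man2a1 and Man1a were called with the length and GC offsets (adjusted p = 0.0347 by edgeR for Man2a1 and 0.0463 for Man1a). Both were also called with library number as a block, with and without these offsets. Man2a1 was further called with DESeq2 and without a filter on low counts, and Man1a without both libraries numbered 2. Under the remaining alternatives neither was called. Of the 14 tested Golgi genes 11 were negative, while 48.7% of all genes tested were positive. The median of the 14 was -0.15 on the log2 scale, and Mgat4a was not tested. For 4 of the 14 (Man1c1, Man2a1, Man1a and Mgat1) every labelled library was below every wild-type library, as for 9.37% of all genes tested. Mgat1, at 134, 138 and 137 CPM against 113, 100 and 116 CPM, is not a mannosidase of the list. The further oligosaccharyltransferase genes Krtcap2, Ost4 (a shared subunit), Tmem258 and Mlec gave 0 calls. The dolichol enzymes Dhdds, Srd5a3 and Dolk had log2 fold changes of 0.04, -0.16 and -0.34 with 0 called.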

How the data were processed

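RNA was measured in 6 libraries, 3 per group. The authors deposited raw, unnormalized gene counts, and HISAT2 2.0.5, featureCounts 1.5.0-p3 and genome build mm10 are named per the submitters' processing notes. Annotation release, strand setting and filters: not given in the sources used here. Positions and exonic lengths came from GENCODE M21 (GRCm38), which held 97.8% of the identifiers, and promoters from RefSeq (GRCm38.p6), with 31 of 36 members matched. Exons of 11 members overlap another gene, 6 of them by at least 200 bases (Alg1, Alg9, Dpm1, Rpn2, Man1b1 and Gmppb). A pseudogene copy of at least 90% identity over 200 bases was found for 0 members.

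Genes were kept by filterByExpr and tested with edgeR 4.0.16 in R 4.3.3 (quasi-likelihood F test, TMM factors, no covariate, Benjamini-Hochberg adjustment over 12651 genes, threshold 0.05). Standard errors were derived from the F statistic. Ratios of paired genes were tested by exact permutation. The fit was tested on simulated data, where edgeR called 10.2% of 98 genes changed 2-fold and 88% of 100 genes changed 4-fold. Of its 102 calls there, 4 were of unchanged genes. Alternatives were DESeq2 1.42.0, limma-voom 3.58.1, other factors and filters, the replicate block, offsets (loess, span 0.5), thinning and left-out libraries.

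The members and lists were chosen with earlier results of these data known. By the naming rule, library values are given for members called or without overlap, those with the largest and smallest change in each role and the paired genes, and of other pathway genes for those called; the remaining members' values were added. Standard errors and intervals rest on 3 libraries a group.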

Additional observations from a re-analysis of the deposited data

How the results depend on the processing

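No member was called under any of the 18 alternatives (edgeR, DESeq2 and limma-voom at an adjusted p of 0.05), and between 0 and 3 members were under an unadjusted p of 0.05. Of the 648 member values under alternatives, 613 kept their sign and 35 turned it, in 12 members. The adjusted p of Uggt1 ran from 0.0631 to 0.627 and that of Tusc3 from 0.236 to 0.671. The median over members ran from -0.19 to -0.028 on the log2 scale over the fits that leave out 1 library. Without a filter on low counts the median of all genes shifted to -0.11, and that of the members to -0.17.

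Signs turned without both libraries numbered 2 for Alg14 (-0.043), Alg9 (0.035), Dad1 (-0.10), Gfpt1 (-0.21), Mogs (0.15), Mpi (0.052) and Stt3a (0.050). They turned without a filter for Alg11 (-0.0059), Dpm3 (-0.0099) and Ostc (-0.014), with thinned libraries for Mogs (0.012) and Stt3a (0.0052), and for Dpm3 with limma-voom (-0.067), the replicate block (-0.057), the length and GC offsets (-0.10) and both together (-0.13). Leaving out 1 library turned Alg11 (-0.25 to 0.30), Alg14 (-0.16 to 0.23), Dad1 (-0.30 to 0.40), Ddost (-0.13 to 0.20), Dpm3 (-0.63 to 0.39), Gfpt1 (-0.14 to 0.27), Gmppb (-0.35 to 0.12), Mogs (-0.14 to 0.080), Ostc (-0.27 to 0.24) and Stt3a (-0.088 to 0.036). The cause was not tested.

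The other pathway genes called numbered 1, and 2 with DESeq2, without a filter and without both libraries numbered 2, 3 with the length and GC offsets, the replicate block or both together, 0 with thinned libraries, and 0 to 1 without each library in turn. Libraries with the same number did not all deviate together (correlations across genes of 0.0147, 0.341 and 0.434 for numbers 1 to 3), and not every library correlated best with its own number, so that the number is not known to pair them. With the replicate block all genes called numbered 719 against 429, and 0 members were called. All genes called also numbered 719 with DESeq2, 688 without a filter, 244 with thinned libraries, and 225 to 374 without each library in turn. Depth in the labelled libraries, the shallower group, limits the members with the fewest counts, such as Dpm1 with 18 in labelled library 1.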
